A study of Macaca mulatta with 8 samples.

Results

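The cells described here are those that the authors' deposited annotation calls endoTreg, their class of endogenous regulatory T cells (Tregs), but that were sorted as CD127-positive. They were found by 2 deposited labels per cell, the library of origin and the class, with no threshold on any gene. They numbered 688 of the 25397 cells in the table, and 2961 cells carried the class in all. The CD127-positive CD25-positive sort, called the CD25-positive sort below, held 272 of them on day 3 and 293 on day 20. In the CD127-positive CD25-negative sort, the CD25-negative sort below, there were 73 on day 3 and 50 on day 20. The main references were the conventional T cells (the class Tconv) of the same library and the endoTreg cells of the CD25high CD127low sort, which has the surface phenotype of endogenous Tregs and is called the Endo sort as in the labels.

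The series followed adoptively transferred Tregs in rhesus macaques by droplet-based single-cell RNA sequencing (10x 3' chemistry, version 2) of blood mononuclear cells on day 3 and day 20. After thawing and magnetic enrichment for CD4, 4 populations were sorted on each day: cells positive for the dye CFSE, the CD25high CD127low cells and the 2 CD127-positive populations, the last 3 also gated on CD3 and CD4. Each population gave 1 library on each day, 8 in all, so there is no replicate and no test, and a difference between days cannot be told apart from a difference between libraries. The labels name no animal, strain, age or treatment behind a library, so these cannot be told apart from the groups either.

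FOXP3 is the transcription factor that defines Tregs and represses or activates much of their gene program. CD25, encoded by IL2RA, is the high-affinity chain of the interleukin-2 receptor, on which Tregs depend, while CD127, encoded by IL7R, is the interleukin-7 receptor chain that conventional and memory CD4 T cells keep and that FOXP3 represses. Sorting schemes therefore take CD25-high, CD127-low cells as Tregs, although Tregs with measurable CD127 are well known.

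Values are UMIs, counted RNA molecules, summed over the cells of a group and scaled to the usual library-size-scaled unit, CPM. Brackets give 95% intervals that cover counting error only. Ratios are log2 ratios taken after 10 CPM was added to both sides, so low genes appear to differ less than they do. Calls of a higher or lower gene required a 2-fold ratio in one direction on day 3 and again on day 20, and a level of 50 CPM or more in either group each day. The authors drew the classes from the expression of these same cells by a method the sources used here do not give, so every contrast between classes or clusters describes what was grouped together and is no independent evidence.

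EndoTreg cells made up a smaller share of each CD127-positive sort than of the Endo sort. In the Endo sort the class held 38.9% of 3347 cells on day 3 and 40.0% of 2343 on day 20. In the CD25-positive sort it held 9.22% (8.20 to 10.3) of 2951 cells and 6.17% (5.50 to 6.89) of 4751. The CD25-negative sort gave 2.40% (1.89 to 3.01) of 3037 cells and 1.36% (1.01 to 1.79) of 3677. The sort gate itself sets these shares. The intervals count cells within 1 library each, so they do not cover the spread between libraries.

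The 4 endoTreg groups of interest differed in depth, with 895559 and 683398 UMIs from the CD25-positive sort on days 3 and 20 and only 212509 and 142489 from the CD25-negative sort. Median UMIs per cell were 3064.5, 1938, 2677 and 2507 in that order. Of the 688 cells, 19 had a barcode that also occurs in another library, against 382 such barcodes in the table. No doublet caller was run. Cells with over 2 times their library's median UMIs made up 3.31% and 9.22% of the CD25-positive endoTreg cells on days 3 and 20, against 0.785% and 1.37% of the Tconv cells beside them, and values without doublet-like cells are given beside the results they change. Ribosomal genes took 38.7% and 33.0% of the UMIs of the CD25-positive endoTreg cells, 43.4% and 41.5% of those of their Tconv cells, and 38.0% and 36.9% of those of the Endo endoTreg cells.

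Checked against FOXP3, IL2RA, CTLA4 and IL7R, the CD25-positive group carried the Treg pattern, while the CD25-negative group had FOXP3 and IL2RA at or near 0. FOXP3 stood at 151 CPM (126 to 178) on day 3 and 169.7 CPM (140.3 to 204) on day 20 in the CD25-positive endoTreg cells. Their Tconv cells had 2.49 and 6.13 CPM, and the Endo endoTreg cells had 160.2 and 139.9 CPM. In the CD25-negative endoTreg cells FOXP3 came to 4.71 CPM, a single UMI, on day 3 and to 0 on day 20, which allows up to 21.1 CPM. The CD25-negative cells are therefore called by their annotation, the CD25-negative cells of the class, and are described last and apart.

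IL2RA followed the same order. It is the transcript of the sorting marker CD25, so its difference between the 2 CD127-positive sorts is not independent of the gate. IL2RA reached 429.9 and 319 CPM on days 3 and 20 in the CD25-positive endoTreg cells, against 60.1 and 69.6 CPM in their Tconv cells and 597 and 338 CPM in the Endo endoTreg cells. In the CD25-negative cells of the class it was at 14.1 CPM (3 UMIs) on day 3 and at 0 on day 20. CTLA4, an inhibitory receptor that Tregs hold constitutively, stood at 68.1 and 111 CPM in the CD25-positive endoTreg cells, at 11.3 and 9.91 CPM in their Tconv cells and at 83.4 and 88.2 CPM in the Endo endoTreg cells. In the CD25-negative cells of the class CTLA4 was at 42.4 CPM (9 UMIs) on day 3, a log2 ratio of 1.36 (0.51 to 2.17) to their Tconv cells, and at 21.1 CPM (3 UMIs) on day 20, a log2 ratio of 0.68 (-0.45 to 1.89). A UMI of CTLA4 was seen there in 12.3% of 73 cells on day 3 (5.80 to 22.1), against 2.36% of their Tconv cells, and in 0 of 73 after thinning to 1000 UMIs. On 3 of the 4 marker genes the CD25-positive endoTreg cells thus lay near the Endo endoTreg cells and far above the conventional cells of their own tube.

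IL7R, the transcript of the sorting marker CD127, was between the 2 references. The CD25-positive endoTreg cells had 251 CPM on day 3 and 322 CPM on day 20. Their Tconv cells, which passed the same CD127 gate, had 887 and 1057 CPM, so the log2 ratio was -1.78 (-1.97 to -1.60) on day 3 and -1.68 (-1.88 to -1.50) on day 20. The Endo endoTreg cells, sorted as CD127low, had 145 and 216 CPM, which put the CD25-positive endoTreg cells higher by a log2 ratio of 0.75 (0.54 to 0.96) and 0.56 (0.33 to 0.77). For FOXP3 the same contrast gave -0.08 (-0.34 to 0.17) and 0.26 (-0.03 to 0.55), both intervals including 0. IL2RA was lower than in the Endo endoTreg cells on day 3, at -0.46 (-0.62 to -0.31), while on day 20 its interval included 0, at -0.08 (-0.29 to 0.13).

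**Figure D1:**
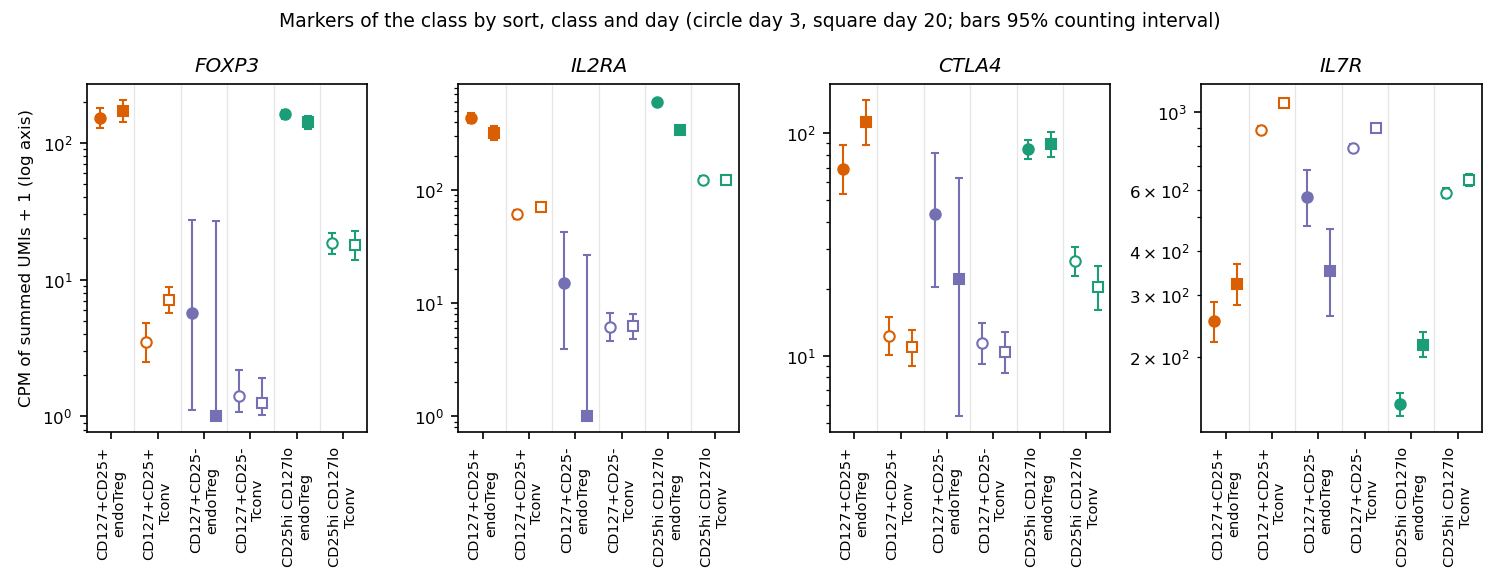
Summed level of FOXP3, IL2RA, CTLA4 and IL7R (CPM + 1, log axis) in the endoTreg and Tconv cells of the 3 sorts on day 3 (circles) and day 20 (squares), with filled symbols for endoTreg, open symbols for Tconv and bars for the 95% counting interval. FOXP3 of the CD25-positive endoTreg cells lies at 151 and 169.7 CPM, beside the Endo endoTreg cells, while that of the CD25-negative cells of the class lies at or below 4.71 CPM.

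The shares of cells with a UMI told the same at a common depth of 1000 UMIs per cell. FOXP3 was seen in 11.8% (32 of 272 cells, 8.19 to 16.2) of the CD25-positive endoTreg cells on day 3 and in 17.4% (51 of 293, 13.2 to 22.2) on day 20, and without thinning in 27.9% and 26.6%. Among their Tconv cells, which should lack the gene, the thinned shares were 0.262% and 0.697% (0.748% and 1.24% unthinned), at median depths of 2930 and 2138 UMIs. IL7R was seen in 19.9% and 26.3% of the thinned endoTreg cells (40.1% and 42.7% unthinned). A UMI of FOXP3 and one of IL7R occurred together in 23 of 272 cells (8.46%) on day 3 and 33 of 293 (11.3%) on day 20, so both transcripts were present in single barcodes. This was not particular to the CD127-positive gate. In the Endo endoTreg cells the 2 occurred together in 146 of 1301 (11.2%) and 79 of 938 (8.42%). A UMI of FOXP3 or IL2RA was found in 170 of 272 cells (62.5%) and in 164 of 293 (56.0%), and the remaining cells carried the class with neither.

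Against their own Tconv cells, the CD25-positive endoTreg cells were higher on both days for 36 of 1801 genes (2%) and lower for 5 (0.278%), while the median gene was shifted by 0.18 on day 3 and 0.25 on day 20. The split depended on the scaling: TMM factors gave 26 higher and 19 lower genes and moved the median gene by -0.23 and -0.31, median-of-ratios factors gave 28 and 13, and CPM over named genes alone (ribosomal, mitochondrial and hemoglobin genes left out) gave 27 and 14. All 5 lower genes were called under each of these scalings. Leaving out 59 CD3-less cells of the table that carried B cell or monocyte markers left 29 of the 36 higher and all 5 lower genes, and leaving out doublet-like cells left 21 and 4.

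The class markers led the higher genes together with genes less often named in Tregs. PRSS57, a serine protease known from myeloid granules, had 139.6 and 283.9 CPM on days 3 and 20 in the CD25-positive endoTreg cells against 0.622 and 1.33 CPM in their Tconv cells. CGA, the common alpha chain of the glycoprotein hormones, had 91.6 and 441.9 CPM against 0.249 and 1.12 CPM. IL1RL1, the interleukin-33 receptor ST2, which marks tissue and effector Tregs, had 71.5 and 183 CPM against 1.62 and 2.45 CPM. Log2 ratios were 3.82 (3.55 to 4.06) and 4.70 (4.46 to 4.91) for PRSS57, beside 3.69 (3.41 to 3.94) and 3.48 (3.18 to 3.76) for FOXP3. In the Endo endoTreg cells PRSS57 stood at 162 and 204.8 CPM and CGA at 114 and 377 CPM, so both transcripts were also present under the CD127low gate. CD9, a tetraspanin of the cell surface, had 141.8 and 163.9 CPM in the CD25-positive endoTreg cells against 19.0 and 26.4 CPM in their Tconv cells. Earlier work on these same libraries had linked a list of 10 genes to Tregs, PRSS57 and CGA among them. The list had 5 members at 2-fold or more on day 3 and 7 on day 20. Of all genes measured at 20 CPM or more, 1.96% and 4.24% were 2-fold higher. The count is no independent evidence since the list was drawn from these cells.

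Of the Treg core list, 11 members were measured at 20 CPM or more on day 3 and 12 on day 20, and 6 were at least 2-fold higher than in the Tconv cells on each day, against 1.96% and 4.24% of all genes so measured. None was lower on day 3 and 1 on day 20. TNFRSF18, the co-stimulatory receptor GITR, stood at 122.8 and 215.1 CPM against 37.9 and 45.6 CPM. TNFRSF1B, the second tumour necrosis factor receptor, stood at 179.8 and 130.2 CPM against 30.5 and 30.6 CPM. The list median was 1.01 on day 3 and 0.94 on day 20, beside 0.16 and 0.24 for all genes. IKZF2 and LRRC32, known Treg genes as well, were too low to be measured, at no more than 8.78 and 5.58 CPM in the CD25-positive endoTreg cells.

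Effector Treg genes were higher for 5 of 10 measured members on day 3 and 8 of 9 on day 20, against 1.96% and 4.24% of all genes so measured, with medians of 0.96 and 1.33 beside 0.16 and 0.24. S100A4, a calcium-binding protein of memory and effector T cells, had 2546 and 4369 CPM against 1248 and 1466 CPM in the Tconv cells. Its log2 ratio of 1.02 on day 3 was just past 2-fold, and it was no longer called under TMM, median-of-ratios or named-gene scaling, without doublet-like cells or without the CD3-less marker cells. LGALS3, which encodes galectin-3, had 259.1 and 466.8 CPM against 100.2 and 128.6 CPM. BATF, a transcription factor of effector Tregs, had 118.4 and 177.1 CPM against 60.2 and 74.2 CPM, and only its day 20 ratio of 1.15 (0.88 to 1.41) passed 2-fold.

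The naive and quiescent list was the reverse, with 0 of 8 members higher and 1 lower on day 3, and 0 of 10 higher and 4 lower on day 20, against 0.476% and 0.958% of all measured genes lower. TCF7, a transcription factor of naive T cells, had 82.6 and 54.1 CPM against 174.5 and 197.6 CPM. The 5 genes lower on both days were APOD, IL7R, PLA2G16, CD40LG and ANXA1. CD40LG, the helper signal of conventional CD4 T cells to B cells, had 19.0 and 29.3 CPM against 60.6 and 82.3 CPM, a log2 ratio of -1.28 (-1.76 to -0.79) and -1.23 (-1.74 to -0.73). ANXA1, an annexin, had 324.9 and 310.2 CPM against 686.1 and 895.5 CPM.

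Genes of dividing cells were also higher. In the proliferation list 6 of 7 measured members were at least 2-fold higher on day 3 and 7 of 10 on day 20, against 1.96% and 4.24% of all genes so measured, with medians of 1.46 and 1.51 beside 0.16 and 0.24. PCNA, the sliding clamp of DNA replication, stood at 106.1 and 131.7 CPM against 29.7 and 36.2 CPM. STMN1, a microtubule regulator, stood at 357.3 and 431.7 CPM against 131.5 and 153.9 CPM. PTTG1, the securin that guards sister chromatids, stood at 199.9 and 471.2 CPM against 21.8 and 31.0 CPM. Without doublet-like cells PCNA and STMN1 were no longer called, while PTTG1 was. Doublet-like cells include all with over 2 times their library's median UMIs, and whether dividing cells were left out with them was not tested.

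A further group of higher genes belongs by name to antigen-presenting and B cells. All 3 measured MHC class II members on day 3 and all 4 on day 20 were at least 2-fold higher, with medians of 2.50 and 2.70, and 3 of 4 and 4 of 4 B cell markers were too, against the same 1.96% and 4.24% of all genes and medians of 0.16 and 0.24. DRA, the alpha chain of MHC class II DR, had 61.4 and 159.5 CPM against 1.99 and 2.55 CPM, and IGKC, the immunoglobulin kappa constant region, 78.2 and 171.2 CPM against 4.60 and 5.41 CPM. Mamu-DPB1, an MHC class II beta chain, had 50.2 and 68.8 CPM against 0.622 and 3.06 CPM, and CST3, the protease inhibitor cystatin C, 59.2 and 106.8 CPM against 0.995 and 1.43 CPM. The summed B cell markers came to 186 and 376 CPM against 26.4 and 27.7 CPM, and the summed monocyte markers to 266 and 170 CPM against 18.0 and 20.8 CPM. On day 3, 1 CD25-positive endoTreg cell with 0 CD3 UMIs alone held 162 monocyte marker UMIs, and the next highest held 11. Without the CD3-less marker cells, 3 in this group on day 3 and 6 on day 20, DRA fell to 21.4 and 50.5 CPM and IGKC was at 78.7 and 118.9 CPM. DRA, CD79B, Mamu-DPB1 and CST3, the latter 2 at 41.6 and 45.0 CPM, then missed the expression minimum on day 3, and IGKC remained called. Their log2 ratios stayed past 2-fold on days 3 and 20, at 1.39 and 2.27 for DRA and 1.98 and 2.08 for CD79B. Mamu-DPB1 had 2.28 and 1.90, and CST3 2.32 and 3.32. Without doublet-like cells DRA, CD79B, Mamu-DPB1, CST3 and IGKC were all no longer called. Both sets of left-out cells were picked at least partly by B cell or monocyte marker UMIs, so these losses were partly set by definition. In the Endo sort, with all cells kept, the endoTreg cells were also above their Tconv cells, at 2.28 and 2.21 for DRA and 2.58 and 2.71 for IGKC.

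The same contrast in the Endo sort, in other libraries, gave 19 higher (1.08%) and 7 lower (0.398%) of 1757 genes. Of those 19, 18 were also at least 2-fold higher on both days in the CD25-positive endoTreg cells, against 2% of all genes tested. Of the 7 lower ones, 4 were lower there too, against 0.278%. The class consists of the authors' clusters 3 and 4 in both sorts, so this overlap is no independent evidence. HIST2H2AA4, a histone gene, was the exception among the higher genes, at 0.72 on day 3. ISG15, an interferon-induced gene, was lower in the Endo endoTreg cells by -1.12 and -1.34 but differed by only -0.17 and -0.17 in the CD25-positive sort, and TCF7 and TIMP1 missed 2-fold on 1 day each. The median ratios of the 19 genes were 2.23 and 2.48 in the CD25-positive sort and 1.94 and 1.79 in the Endo sort. The Tconv cells of the Endo sort had 17.5 and 16.9 CPM of FOXP3, against 2.49 and 6.13 CPM in those of the CD25-positive sort, so the 2 denominators differ. In the CD25-negative cells of the class 8 of the 19 and 1 of the 7 passed, against 2.91% and 0.224% of all genes tested. FOXP3, IL2RA, CTLA4, PRSS57, CGA and IL1RL1 were not among the 8. DRA and IGKC were, and neither was still called without the CD3-less marker cells. PTTG1, PTMS, TPM4, HIST2H2AA4 and an unnamed gene were among them too and stayed called without those cells. Without doublet-like cells PTTG1 was still called, while PTMS, TPM4 and HIST2H2AA4 were not.

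**Figure D2:**
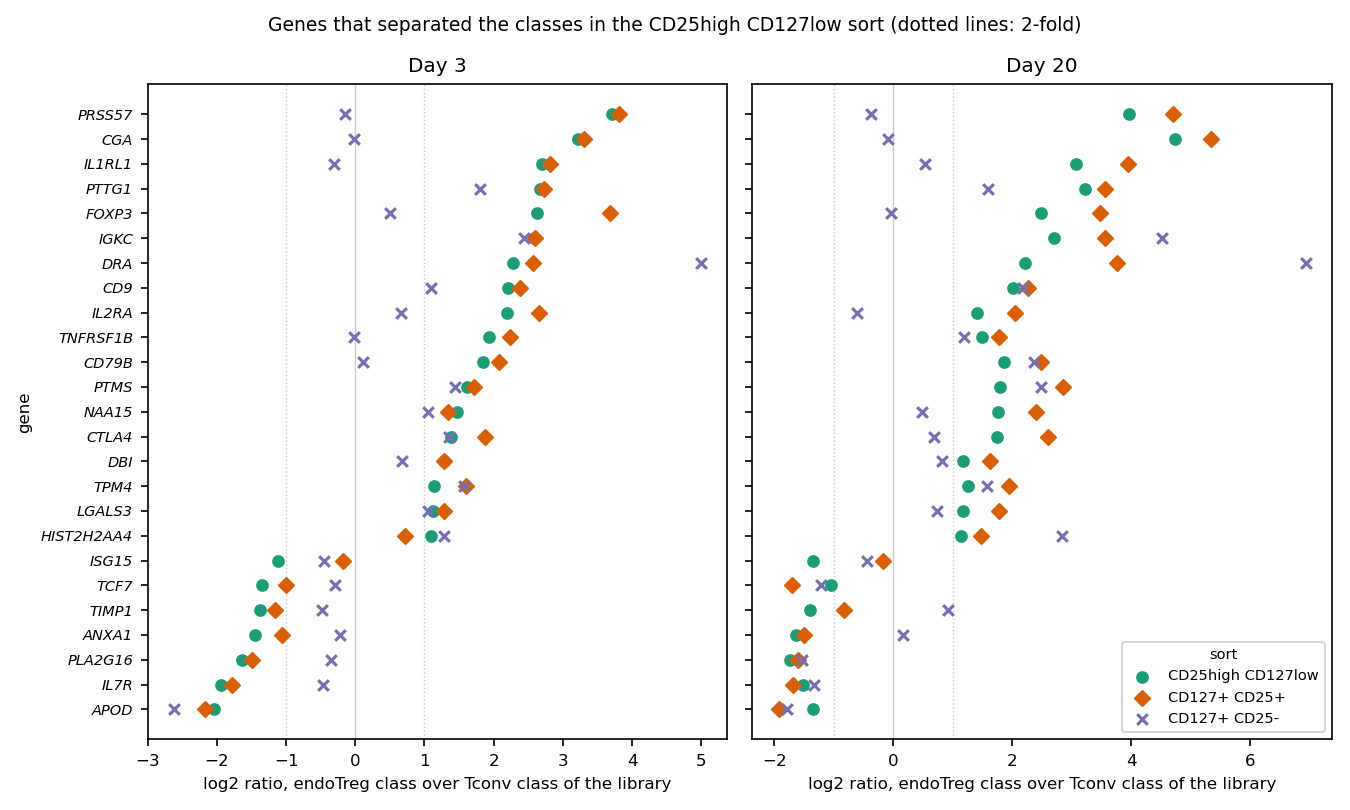
Log2 ratio of endoTreg over Tconv cells of the same library for the 25 named genes that differ at least 2-fold in the Endo sort on both days, with 1 panel per day and 1 symbol per sort. The CD25-positive symbols follow the Endo symbols for nearly every gene, while the CD25-negative symbols lie near 0 for PRSS57, CGA and FOXP3 and far to the right for DRA.

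Set directly against the Endo endoTreg cells, the CD25-positive endoTreg cells had 0 of 1856 genes (0%) higher and 0 (0%) lower by 2-fold on both days. With no expression minimum, with the mean of per-cell CPM or with cluster 3 alone 1 gene, CFD, was higher. CFD, complement factor D, had 42.4 and 155.1 CPM against 1.13 and 1.88 CPM, and without the 9 CD3-less marker cells its level in the CD25-positive endoTreg cells was 4.50 and 2.97 CPM. On day 3 alone 4 genes of 1915 (0.209%) were higher, 3 of them unnamed and the other LYZ, the monocyte lysozyme gene, and 0 were lower. On day 20 alone 13 of 2155 (0.603%) were higher and 140 (6.5%) lower. The lower genes comprised 124 unnamed genes, 12 ribosomal protein genes and 4 others, NACA2, PFDN5 and NPM1 among them. Beside these stands the ribosomal share of 33.0% against 36.9% on that day, whose part in the count was not tested. Across 2090 genes, which are not independent replicates, the Pearson correlation of log2 levels with the Endo endoTreg cells was 0.988 and 0.953, and with their own Tconv cells 0.967 and 0.944.

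The largest of the smaller ratios over both days were those of PCNA and IL7R. PCNA stood at 106.1 and 131.7 CPM in the CD25-positive endoTreg cells and at 55.7 and 44.3 CPM in the Endo endoTreg cells, a log2 ratio of 0.82 (0.50 to 1.13) and 1.38 (1.02 to 1.74). STMN1 differed mainly on day 20, when it had 431.7 CPM beside 153.8 CPM, as did MKI67, the proliferation antigen Ki-67, with 52.7 CPM beside 17.6 CPM. Of the measured proliferation members 0 of 7 were 2-fold higher than in the Endo endoTreg cells on day 3 and 6 of 10 on day 20, against 0.338% and 0.686% of all genes so measured, with medians of 0.62 and 1.14. Cells with over 2 times the median UMIs were more frequent on day 20 here, at 9.22% against 5.01%, and what part they had in this was not tested.

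All 688 cells lay in the authors' clusters 3 and 4, and 0 carried one of the authors' finer cell names. Cluster 3 held 140 of 272 CD25-positive endoTreg cells (51.5%) on day 3 and 238 of 293 (81.2%) on day 20. The Endo endoTreg cells had 43.8% and 57.0% in cluster 3. What follows are the genes that set the 2 clusters apart within the CD25-positive endoTreg cells, which describe the authors' clustering and are no test.

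FOXP3 was present in both clusters, with 205 and 191 CPM on days 3 and 20 in cluster 3 and 88.6 and 62.3 CPM in cluster 4. IL2RA differed less, with 471 and 310.0 CPM in cluster 3 and 383 and 365 CPM in cluster 4, and so did IL7R, with 268 and 315 CPM and 232 and 356 CPM. PRSS57, by contrast, was at 262 and 340 CPM in cluster 3 and at 0 in cluster 4 on both days, and CGA and IL1RL1 were also at 0 in cluster 4. In cluster 4 a count of 0 allows up to 7.18 CPM on day 3 and 26.7 CPM on day 20. S100A4 was at 4539 and 5115 CPM against 266 and 579 CPM, LGALS3 at 435 and 545 CPM against 57.5 and 71.2 CPM, and STMN1 at 611 and 506 CPM against 67.0 and 53.4 CPM. S100A4, LGALS3 and STMN1 were thus higher in cluster 3 on both days.

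BCL2 and LPAR6 were higher in cluster 4 on both days. LEF1, a transcription factor of naive T cells, was at 170.0 and 151 CPM in cluster 4 against 115 and 71.8 CPM in cluster 3, with counting intervals that overlapped on both days. CCR7, which guides naive T cells to lymph nodes, and KLF2, a quiescence factor, were at no more than 4.79 CPM in either cluster. BCL2, the survival factor downstream of interleukin-7, was at 309 and 231 CPM against 165 and 61.3 CPM. LPAR6, a lysophosphatidic acid receptor, was at 220.2 and 205 CPM against 83.7 and 15.8 CPM. With cluster 4 alone, 4 of the 36 genes higher than in the Tconv cells were still called, namely FOXP3, IL2RA, IL2RB and RGS1, and 3 of the 5 lower ones. With cluster 3 alone 35 and 4 were.

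**Figure D3:**
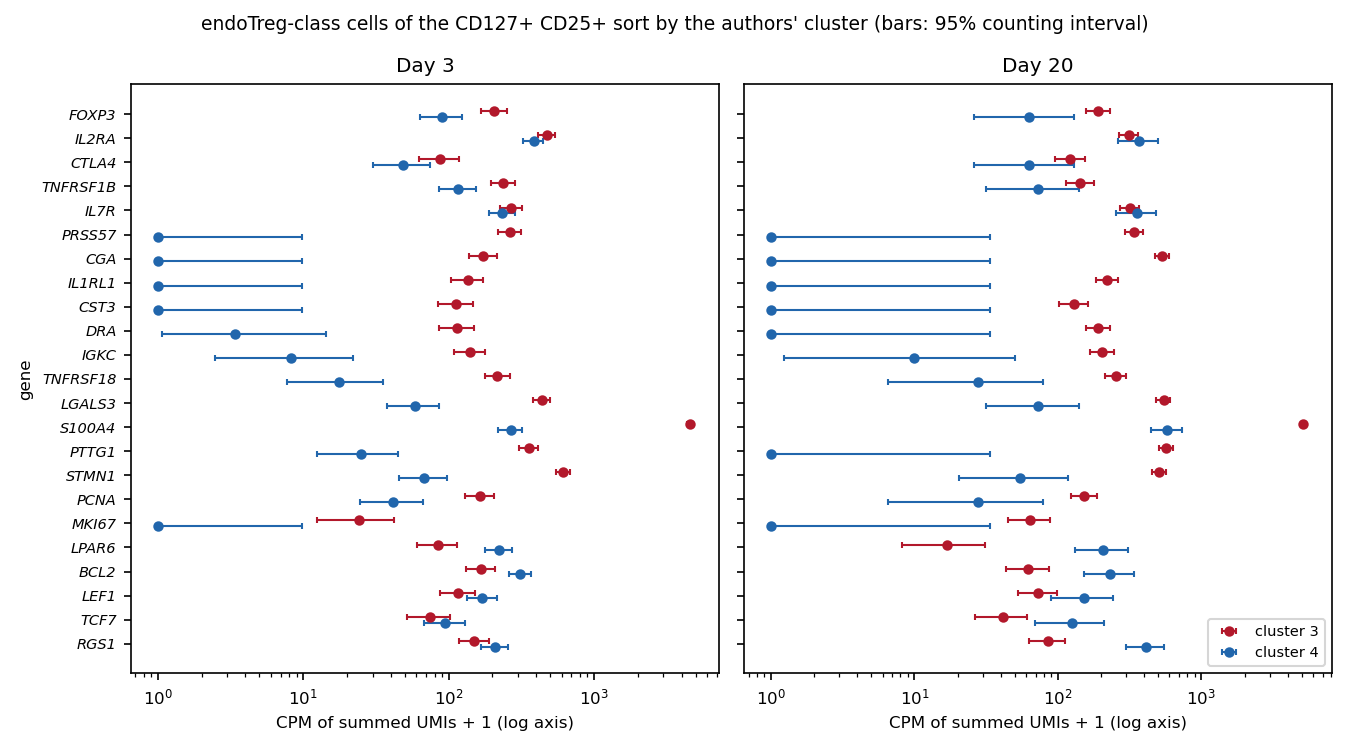
Level of class markers, effector and proliferation genes and LEF1, BCL2 and LPAR6 (CPM + 1, log axis) in the CD25-positive endoTreg cells of the authors' cluster 3 and cluster 4 on each day. FOXP3, IL2RA and IL7R are found in both clusters, PRSS57, CGA and IL1RL1 in cluster 3 with 0 in cluster 4, and BCL2 and LPAR6 lie higher in cluster 4.

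Between day 3 and day 20, 35 of 2116 genes (1.65%) were higher on day 20 in the CD25-positive endoTreg cells by 2-fold and 36 (1.7%) lower, of which 28 were unnamed and 2 ribosomal. TMM factors gave 15 and 78, median-of-ratios factors 16 and 75, and a pseudocount of 30 CPM 14 and 13, so the split rests on the scaling. Their Tconv cells in the same libraries had 0 (0%) and 2 (0.114%) of 1760 genes, and the Endo endoTreg cells 48 (2.44%) and 9 (0.457%) of 1971. Only 1 library stands behind each day, and the cluster 3 share moved from 51.5% to 81.2% with it.

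GZMA, a granzyme of cytotoxic cells, went from 8.93 to 87.8 CPM, a log2 ratio of 2.37. In the Tconv cells its ratio was 0.06 and in the Endo endoTreg cells 2.26, and within cluster 3 it was 2.11. CGA went from 91.6 to 441.9 CPM, ID3, an inhibitor of E-protein transcription factors, from 16.7 to 87.8 CPM, and CSF1, the macrophage growth factor, from 26.8 to 120.0 CPM. Their ratios in the Endo endoTreg cells were 1.64, 1.15 and 0.91, and in the Tconv cells 0.12, 0.56 and 0.57. HOPX, a homeodomain cofactor of effector T cells, went from 46.9 to 180.0 CPM with 1.17 in the Endo endoTreg cells. GZMA, CGA, ID3 and HOPX thus passed 2-fold in the endoTreg cells of both sorts, and CSF1 in those of the CD25-positive sort.

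MKI67 went from 12.3 to 52.7 CPM, with a ratio of 1.49 against 0.03 in the Endo endoTreg cells, and HLA-DPA1, an MHC class II chain, from 25.7 to 77.6 CPM, with 1.29 against -0.16. Without the 9 CD3-less marker cells HLA-DPA1 was at 12.4 and 32.7 CPM, under the expression minimum on both days, so its call was lost. ATP2B1, a plasma membrane calcium pump, had ratios of 1.33 and 0.54, and NAA15, a subunit of the N-terminal acetyltransferase, of 1.33 and 0.45. CFD had 1.65 against 0.09, with the 9 CD3-less marker cells included. Whether these differences between the sorts exceed the spread between libraries was not tested, since each library stands alone.

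The genes lower on day 20 included LYZ, MYB, CISH, LPAR6 and BCL2. CISH, a feedback inhibitor induced by interleukin-2 through STAT5, went from 244.5 to 74.6 CPM, a ratio of -1.59, with -2.70 in the Endo endoTreg cells and 0.07 in the Tconv cells. Within cluster 3 its ratio was -1.29 and within cluster 4 it was -2.23, so the change was present in both. MYB, a transcription factor of progenitors and activated T cells, went from 50.2 to 8.78 CPM (-1.68), with -1.95 in the Endo endoTreg cells. BCL2 went from 232 to 89.3 CPM, with -1.30 in cluster 3 and -0.40 in cluster 4. LYZ went from 84.9 to 14.6 CPM, and without CD3-less marker cells it was at 1.12 and 10.4 CPM.

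**Figure D4:**
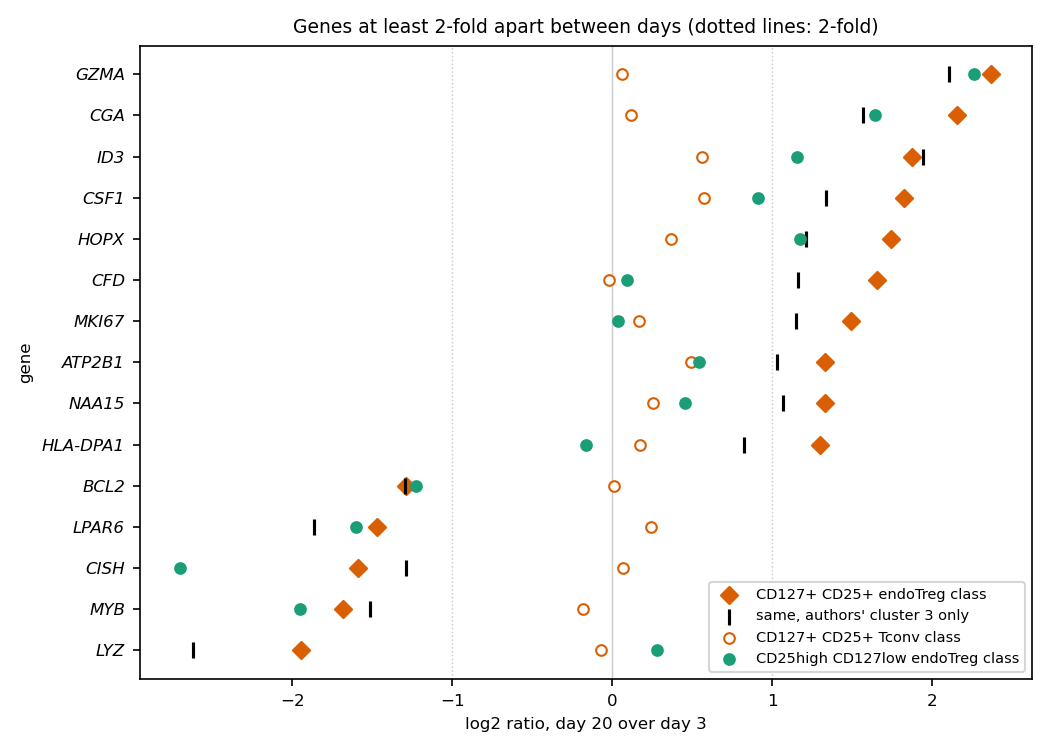
Log2 ratio of day 20 over day 3 for named genes in the CD25-positive endoTreg cells, in those of cluster 3 alone, in the Tconv cells of the same libraries and in the Endo endoTreg cells. GZMA, CGA, ID3, CSF1 and HOPX lie to the right and MYB, CISH, LPAR6 and BCL2 to the left in the endoTreg cells of both sorts, and the Tconv symbols stay between -0.18 and 0.57.

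The CD25-negative cells of the class were another mixture. Against their own Tconv cells 52 of 1788 genes (2.91%) were higher on both days and 4 (0.224%) lower, with 30 and 26 under TMM factors, and the higher genes were led by those of monocytes and antigen-presenting cells. CFD stood at 790.6 and 2674 CPM on days 3 and 20 against 2.46 and 2.63 CPM, and LYZ at 183.5 and 912.4 CPM against 0.273 and 0.626 CPM. DRA stood at 569.4 and 2758 CPM against 8.20 and 12.7 CPM. The myeloid transcription factors SPI1, at 65.9 and 273.7 CPM, and IRF8, at 145.9 and 673.7 CPM, and FCGR3, the Fc receptor CD16, at 127.1 and 329.9 CPM, were at most 1.25 CPM in the Tconv cells. AIF1, VMO1 and MS4A7, known from monocytes and macrophages, had 131.8, 98.8 and 94.1 CPM on day 3 and 442.1, 477.2 and 280.7 CPM on day 20, against at most 2.26 CPM. Among the 4 lower genes, CAMK4, a calcium-dependent kinase of T cells, had 23.5 and 21.1 CPM against 66.2 and 73.4 CPM, and NKG7, a granule gene of cytotoxic cells, 80.0 and 21.1 CPM against 182.1 and 158.9 CPM. Of the MHC class II list 7 of 7 members on day 3 and 8 of 8 on day 20 were at least 2-fold higher, and of the monocyte markers 4 of 4 and 5 of 5, against 5.47% and 14.8% of all genes measured at 20 CPM. The Treg core list had 1 of 9 and 1 of 7 members higher.

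Single cells carried this signal. Of the 123 cells, 22 had 3 or more UMIs of 11 monocyte markers, 5 of 73 on day 3 and 17 of 50 on day 20. These 22 had between 6 and 206 such UMIs, with a median of 15.5, while no other cell of the group had more than 2. All 22 had 0 UMIs of CD3D, CD3E and CD3G, all lay in cluster 3, and 0 had a UMI of FOXP3 or IL2RA. GZMB, a granzyme also found in plasmacytoid dendritic cells, had 30 to 104 UMIs in 6 of them. At least 1 CD3 UMI was found in 91.8% and 58.0% of the CD25-negative cells of the class, against 97.8% and 90.4% of the CD25-positive endoTreg cells. The library labels record a sort gate on CD3 and CD4. Of the Tconv cells of that sort 94.5% and 93.5% had a CD3 UMI, so 0 in a single cell need not mean that it is CD3-negative. All of the 22 cells had 0, however, and whether CD3 transcripts were missed in them was not tested. How the 22 cells came to be in the sort was not tested.

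**Figure D5:**
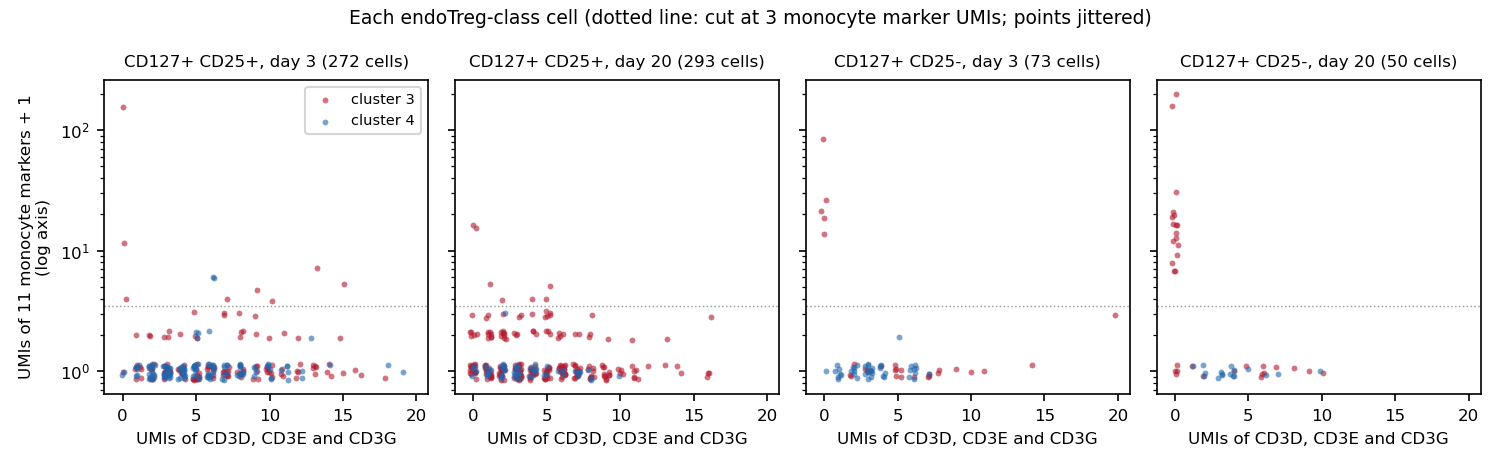
Each endoTreg cell of the 2 CD127-positive sorts, by its UMIs of CD3D, CD3E and CD3G (x axis) and of 11 monocyte markers (UMIs + 1, log y axis), with 1 panel per library and colour by cluster; the dotted line marks 3 marker UMIs. In the CD25-negative panels 22 cells stand above the line with 0 CD3 UMIs, all of them in cluster 3.

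The CD3-less marker cells, 5 on day 3 and 18 on day 20, were picked by B cell or monocyte markers. Leaving them out therefore lowers genes of that kind by design. Without them, CFD and LYZ were at 0 in the CD25-negative cells of the class. Then 16 of 1775 genes (0.901%) were higher than in the Tconv cells and 4 (0.225%) lower, and 11 of the 52 and 2 of the 4 called before were kept. PTTG1 led, at 144.7 and 197 CPM against 30.7 and 35.0 CPM, followed among others by STMN1, at 372 and 657 CPM against 125.7 and 121.0 CPM, and PCNA, at 72.3 and 186 CPM against 29.6 and 32.9 CPM. These sums rest on as few as 14 UMIs for PCNA on day 3. The lower genes were CCL4L1, GZMB, TYROBP and KLRB1, all known from cytotoxic or innate-like lymphocytes. TYROBP had been among the 52 higher genes while the CD3-less marker cells were included, so its direction depended on them. FOXP3 remained at 1 UMI on day 3 and 0 on day 20, and IL7R stood at 620.0 and 503 CPM.

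Cluster 4 held 44 CD25-negative cells on day 3 and 17 on day 20, of which 43 and 17 had a CD3 UMI and 2 and 0 a UMI of FOXP3 or IL2RA. Their IL7R level was 711.9 and 710.7 CPM, near the 788 and 899 CPM of the Tconv cells. There 7 of 1697 genes (0.412%) were higher than in the Tconv cells and 33 (1.94%) lower. These calls rest on thin sums of 109569 and 39399 UMIs, where 3 UMIs equal 27.4 CPM on day 3 and 76.1 CPM on day 20. On day 20 that is above the minimum of 50 CPM, so a call can rest on very few UMIs.

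Directly against the CD25-positive endoTreg cells, the CD25-negative cells of the class were higher for 34 of 1897 genes (1.79%) and lower for 13 (0.685%) on both days. IL2RA, PRSS57, FOXP3, CGA, IL1RL1, CISH and AIRE were among the lower ones. CD25, the protein of IL2RA, set the sorts apart, so IL2RA is no independent evidence here. PRSS57 and CGA had 0 UMIs on both days in the CD25-negative cells of the class, where 3 UMIs would have given 14.1 and 21.1 CPM. Against the Endo endoTreg cells 37 of 1899 genes (1.95%) were higher and 15 (0.79%) lower, with 6 and 7 of 12 measured Treg core members lower on days 3 and 20, against 3.5% and 6.32% of all genes measured at 20 CPM.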

How the data were processed

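Blood mononuclear cells were cryopreserved, thawed on 1 day, enriched and sorted per the labels' protocols. Per the submitters' processing notes, Cell Ranger 2.1.1 was used. The build of the genome is not given in the sources used here. Deposited by the authors were whole UMI counts per gene and cell (16429 genes, 25397 cells) and each cell's library, cluster and class. No filter is stated, and the lowest cell had 817 UMIs. Of the genes, 309 were named from the reference table by identifier and 3146 stayed unnamed.

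Counts were summed per library and class and scaled to CPM. Ratios used a pseudocount of 10 CPM, calls 2-fold and 50 CPM as in the report, and gene lists (30 lists, 293 of 334 members in the table) members at 20 CPM or more in 1 group. Intervals are exact Poisson for sums and Clopper-Pearson for shares, at 95%, with the interval of a ratio taken from both groups' counting intervals. A share allowed by 0 UMIs uses 3 counts. Named genes were taken from the first 12 called per direction, not all of which are printed, ranked by the smaller of the day 3 and day 20 ratios (10 between days), without unnamed, mitochondrial and ribosomal genes, the 4 class markers and list members as examples. Genes of the marker cell subsets, of cluster 4, CFD and LYZ against the Endo sort and LPAR6 by cluster were chosen after their values were seen. The members and lists were chosen with earlier results of these data known. Doublet-like cells (1746) carried 3 or more UMIs of B cell, monocyte, red cell or platelet markers or over 2 times their library's median UMIs. The calling script was tested on simulated counts. TMM factors came from edgeR 4.0.16 and median-of-ratios factors from DESeq2 1.42.0, for scaling only, with Python 3.11.15, numpy 2.4.6, scipy 1.17.1 and pandas 2.3.3. Of the genes this rule names, 1 is not reported here.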

Additional observations from a re-analysis of the deposited data

How the results depend on the processing

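No paired analysis was possible because no replicate numbers link the libraries, each sort and day gave 1 library and no result came from a test. The contrasts with Tconv cells were made within 1 library each. Of 396 alternative values of the class marker ratios, 354 stayed inside the counting interval of the reported ratio, 42 lay outside it, and 0 of the ratios past 2-fold changed sign (some FOXP3, IL2RA and CTLA4 ratios under 2-fold did). Cluster 3 or 4 alone, scaling on named genes, leaving out CD3-less marker cells, and all alternatives for the CD25-negative cells were chosen after seeing the data. Genes lower in CD25-positive endoTreg than in Tconv cells numbered 5, and 19 with TMM, 13 with median-of-ratios, 14 with named-gene scaling, 9 with a pseudocount of 1 CPM, 8 with the mean of per-cell CPM and 8 with no filter. The higher ones numbered 36, and 68 with no filter and 21 without doublet-like cells. Against the Endo endoTreg cells 1 gene was higher with no filter, with per-cell means or in cluster 3 alone. The 35 and 36 genes higher and lower on day 20 became 15 and 78 with TMM, 16 and 75 with median-of-ratios, 15 and 74 with named-gene scaling, 14 and 13 with a pseudocount of 30 CPM and 108 and 73 with no filter, and the lower ones 55 with a pseudocount of 1 CPM and 23 with per-cell means. For CD25-negative cells of the class against Tconv cells, the 52 and 4 became 30 and 26 with TMM, 151 and 24 with no filter and 7 and 33 in cluster 4. Their higher genes numbered 34 with per-cell means, 8 without doublet-like and 16 without CD3-less marker cells, and their lower ones 10 with median-of-ratios and 10 with named-gene scaling, and 2 with a pseudocount of 30 CPM. Against the Endo endoTreg cells, the 37 and 15 became 109 and 39 with no filter. The higher ones numbered 10 without doublet-like cells, 12 without CD3-less marker cells and 14 in cluster 4, and the lower ones 26 with TMM, 23 with a pseudocount of 1 CPM and 8 with one of 30 CPM. Class shares on day 20 became 5.27% (CD25-positive) and 0.792% (CD25-negative) without doublet-like cells, and 0.875% (CD25-negative) without CD3-less marker cells. Without thinning, cells with a UMI of FOXP3, IL2RA and IL7R in the CD25-positive sort made up 27.9%, 57.7% and 40.1% on day 3 and 26.6%, 44.0% and 42.7% on day 20, and of IL7R in the CD25-negative sort 67.1% and 46.0%. With a 3-fold Endo gene set, 100% of the higher (10 of 10) and 100% of the lower genes (1 of 1) passed, against 94.7% (18 of 19) and 57.1% (4 of 7). The cause was not tested. The 212509 and 142489 UMIs of the CD25-negative cells limit what could be seen there, since 3 UMIs equal 14.1 and 21.1 CPM. In their cluster 4 alone 3 UMIs equal 27.4 and 76.1 CPM.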

Other observations

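Interferon response genes and T cell markers of the CD25-positive endoTreg cells were mostly within 2-fold of the Tconv level. Of the interferon response list 0 of 11 measured members were 2-fold higher than in the Tconv cells on day 3 and 2 of 11 on day 20. Of all genes so measured, 1.96% and 4.24% were. The list medians were 0.02 and 0.30 beside 0.16 and 0.24 for all genes. IFI27, an interferon-induced gene, stood at 161.9 and 406.8 CPM against 107.2 and 161.0 CPM. T cell markers were neither 2-fold higher nor lower for any of 5 measured members on either day. Among all measured genes, 0.476% and 0.958% were lower. CD69, an early activation marker that holds T cells in tissue, was at 153 and 86.3 CPM in the endoTreg cells against 287.5 and 222.7 CPM in the Tconv cells. IL2RB, the beta chain that shares the interleukin-2 receptor with CD25, was at 72.6 and 81.9 CPM against 24.5 and 27.6 CPM, and remained called in cluster 4 alone. AIRE, the regulator of thymic self-antigen expression, was at 93.8 and 77.6 CPM against 19.4 and 13.3 CPM, and at 107.2 and 44.6 CPM in the Endo endoTreg cells. IL10, a suppressive cytokine, had 0 UMIs in the CD25-positive endoTreg cells on both days.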
